A study of Mus musculus with 4 samples.

Results

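Cell junction genes were examined after knockdown of the adhesion gene Eva1 (Mpzl2 in current nomenclature) in NSCL61, mouse cells that model the initiation of glioma. The genes were taken by name from the platform annotation. They cover classical and other cadherins and non-clustered protocadherins (Cdh and Pcdh followed by a digit), claudins (Cldn) and connexins (Gja to Gje). They also cover desmogleins, desmocollins, desmoplakin, plakophilins and plakoglobin (Dsg, Dsc, Dsp, Pkp, Jup). Tight junction genes such as Tjp1, Tjp3, Ocln and those beginning with Cgn complete the set. The rule found 85 genes on 87 of the 23473 probes, out of 16391 named genes, and no measured value entered it. The clustered protocadherins are outside the rule.

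The series holds 4 arrays, 2 titled with the line's name alone (control) and 2 titled with shRNA (Eva1 shRNA). The title of the series sets a control hairpin against an Eva1 hairpin, while no control label names a hairpin. All arrays share the line, the C57BL6 strain, brain origin and newborn stage given in the labels. By its published description the line came from p53-deficient neural stem cells that overexpress an oncogenic HRas, so both groups carry those changes. The labels name 1 line, state hygromycin selection of transfected cells for 2 weeks in one protocol and 1 week in another, and do not say whether replicate arrays are from different cultures. The p-values therefore measure only the spread between these arrays, which may be technical.

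As background, cadherins hold neighbouring cells together through calcium-dependent binding outside the cell and catenins inside it, and N-cadherin (Cdh2) is the main one of neural stem cells. Desmosomes are stronger spots in which desmosomal cadherins are tied to keratins by plakophilins, plakoglobin and desmoplakin. Claudins seal or perforate the space between epithelial cells at tight junctions, which zonula occludens proteins link to actin. Connexins form gap junction channels that pass ions and small molecules between cells, and Gja1 is the connexin best known in astrocytes and neural progenitors.

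Values are deposited intensities, whose median is near 25 on each array. Log2 changes subtract the control mean from the Eva1 shRNA mean after quantile normalization. Changes were tested with limma over 13766 genes measured on all 4 arrays, two-sided, with adjusted p under 0.05 as the threshold. The targeted gene Mpzl2 read 55.0 and 54.4 in controls against 8.20 and 6.21 after knockdown, and was 8.72-fold lower (log2 change -3.12, standard error 0.16, adjusted p = 0.00105). Replicate arrays correlated at 0.991 (control) and 0.993 (Eva1 shRNA), and between the groups the correlation over probes was 0.964 to 0.970. The neural stem cell markers Nes (532 and 537 in controls) and Vim (16408 and 15332) were bright, while the radial glia marker Slc1a3 was blank on both control arrays and 1 Eva1 shRNA array, and the stem cell factor Sox2 was not analysed here. Of the 6 tested genes of that marker list 1 fell (Fabp7) and 0 rose, against 13.5% and 12.5% of all genes. At an unadjusted p under 0.05 there were 0 rises and 2 falls.

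Junction genes moved in both directions after Eva1 knockdown, with more called lower than higher at this threshold. That balance turned when changes were tested against a 1.5-fold limit (limma treat), with 4 higher and 3 lower. Over all genes that fit called 369 higher and 480 lower. The plakophilin genes Pkp1 and Pkp3, the claudin genes Cldn23, Cldn10 and Cldn6, the tight junction plaque genes Cgnl1 and Tjp1, the cadherin genes Cdh17 and Cdh13, and the protocadherin gene Pcdh1 fell. The protocadherin genes Pcdh19 and Pcdh18, the cadherin genes Cdh11 and Cdh26, and the connexin gene Gja1 rose. Of 54 tested members 5 rose (9.26%) and 10 fell (18.5%), against 12.5% and 13.5% of all genes tested, and 39 did not pass. In total 15 of 54 were called, against 26% of all genes, so the share called was near the background. Among genes above the median level 43.8% of the members were called against 31.3% of all genes, and among the others 21.1% against 20.6%. At least 2-fold changes were called for 4 members upward and 8 downward, where the background was 5.17% and 6.41%. On the normalized scale the groups did not overlap upward in 15 members and downward in 20, against 32.6% and 34.1% of all genes. The median change of the 54 was -0.10, against -0.01 over all genes.

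With the authors' scaling alone, which moved the median change of all genes to 0.18 and that of the members to 0.09, 8 members rose and 9 fell, so that 47.1% of the member calls were upward in place of 33.3%. Over all genes that share was 67.7% in place of 48.1%. Each fit without an Eva1 shRNA array tested 57 members, and without array 2 these included Cdh15, which is not among the 54. With Eva1 shRNA array 1 left out 4 rose and 5 fell, and with Eva1 shRNA array 2 left out 4 rose and 6 fell, while 42.3% and 41.7% of the calls over all genes were upward in these fits.

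**Figure D1:**
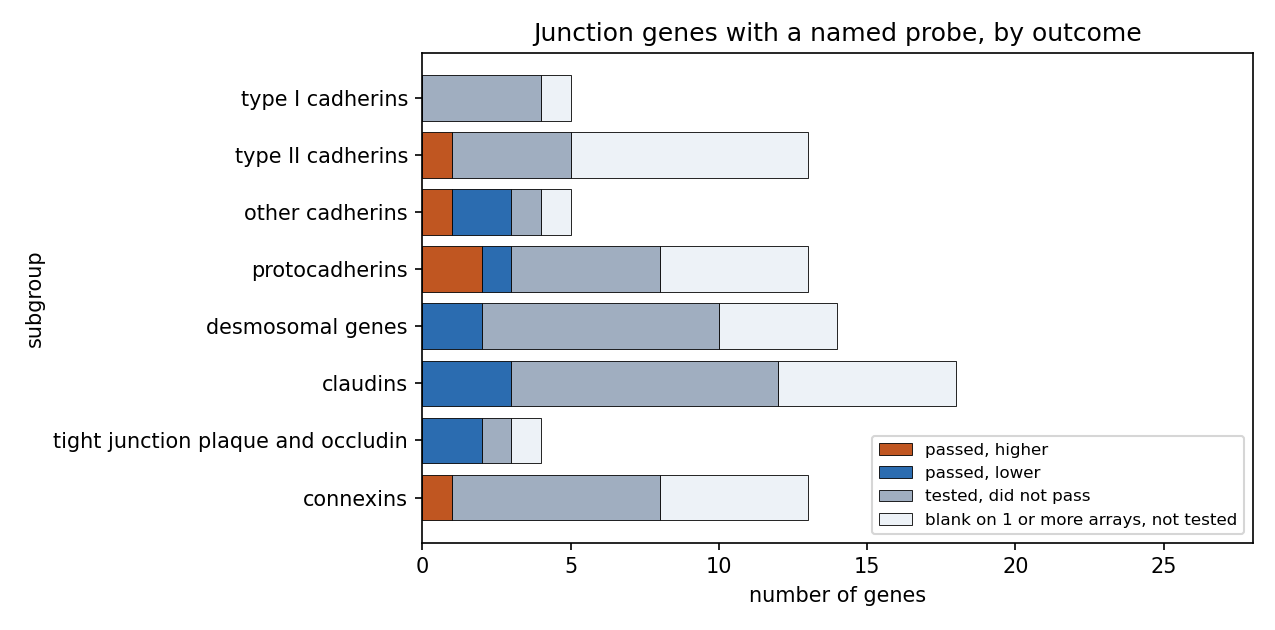
Number of junction genes with a named probe in each subgroup, split into genes that passed the test upward or downward, genes tested without passing, and genes blank on 1 or more arrays. Of the 85 genes 54 were tested. The calls in the desmosomal (2 of 10 tested), claudin (3 of 12) and tight junction plaque (2 of 3) subgroups were downward, against 13.5% of all genes.

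**Figure D2:**
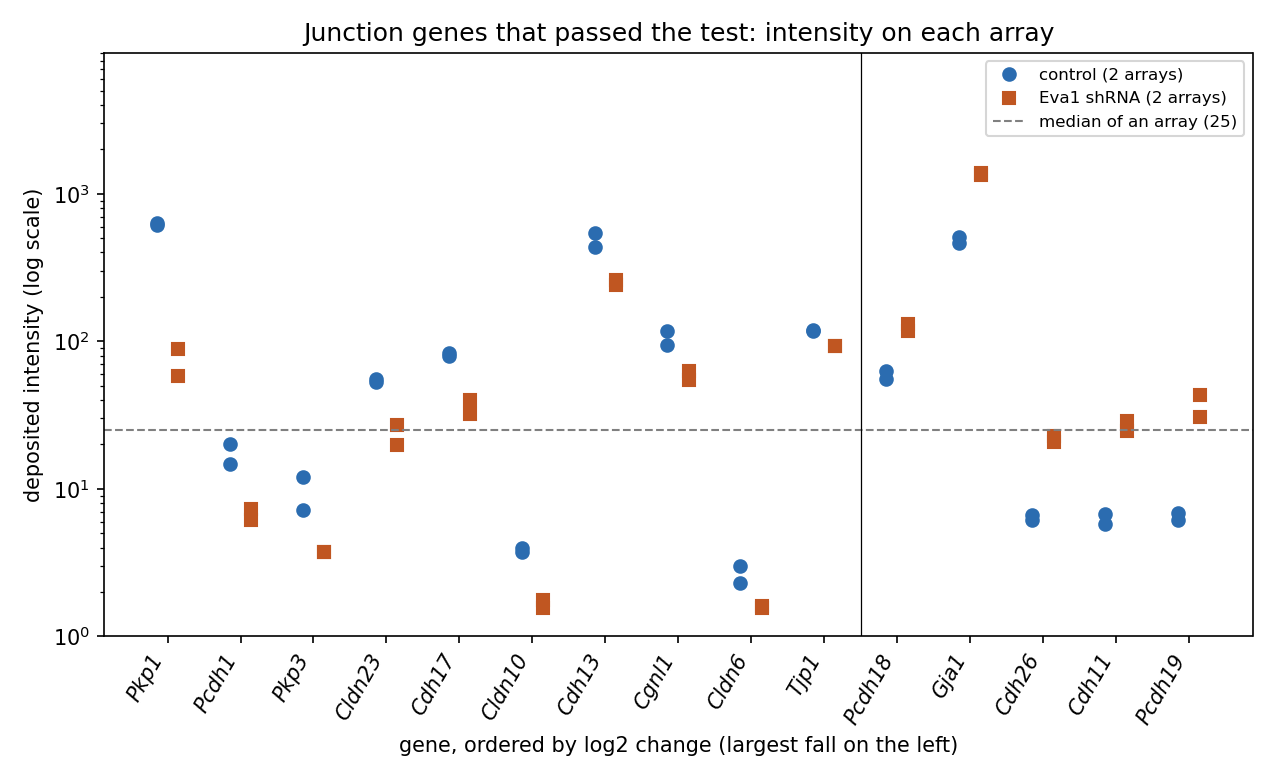
Deposited intensity (log axis) of the 15 called genes on each array, with control arrays as circles, Eva1 shRNA arrays as squares and the array median of 25 as a dashed line. The groups do not overlap for any of the 15, which were chosen by the test on these same arrays. Pkp1 shows the widest gap, from 618 and 635 in controls to 58.5 and 89.2 in Eva1 shRNA cells.

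The type I cadherins, which include the cadherins of most adherens junctions, gave 0 calls in limma's test among 4 tested members (Cdh2 alone, upward, at an unadjusted p under 0.05). Cdh2 (N-cadherin) was bright at 1083 and 1200 in controls and at 2248 and 1687 in Eva1 shRNA cells. Both Eva1 shRNA arrays were above both controls, but the change of 0.63 (95% interval 0.16 to 1.10) did not pass, with adjusted p = 0.0596. Cdh2 did pass with the authors' scaling (adjusted p = 0.0359), without the dimmest 25% of probes (0.0146), with 16 intensity units added (0.00699) and with eBayes trend (0.00251). Those settings called 29.1%, 42.5%, 35.7% and 36.3% of all genes, against 26%. Cdh2 did not pass with median centring (0.0646), with blank cells filled (0.0945), with the replicate number as a block (0.0849) or under limma treat. Its change ran from 0.44 to 0.83 with an array left out, without passing in any of those fits. Cdh3 (P-cadherin) was also well above the array median, at 499.7 and 409 in controls and 579 and 567 in Eva1 shRNA cells, with a change of 0.17 (95% interval -0.22 to 0.57). Cdh1 (E-cadherin), the cadherin that defines epithelia, stayed between 4.67 and 5.88 on all arrays, far under the array median. Cdh15 (M-cadherin), known from muscle, gave 11.04 and 13.2 in controls and 1.30 and a blank in Eva1 shRNA cells, so it was not tested in the fit of all 4 arrays. The value of 1.30 lies close to the lowest intensity of its array, 1.19, so it gives no level to compare.

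Among type II cadherins, Cdh11 was called out of 5 tested, against 26% of all genes called. Cdh11, a cadherin of mesenchymal cells and bone-forming cells, had intensities of 5.80 and 6.75 in controls and 29.0 and 24.7 in Eva1 shRNA cells. It rose 3.71-fold (log2 change 1.89, standard error 0.15, adjusted p = 0.00182). Cdh11 thus went from well under the array median to about the median, and the change was 0.85 with 16 intensity units added. Its call was kept whichever array was left out. Cdh6, a cadherin of kidney and neural crest derivatives, measured 216 and 176 in controls and 326 and 262 in Eva1 shRNA cells. The Cdh6 change of 0.42 (95% interval -0.03 to 0.87) did not pass, although the groups did not overlap, and it passed with 16 intensity units added (adjusted p = 0.0377) and with eBayes trend (0.0332). Cdh10, a brain cadherin, was dim, at 6.79 and 5.75 in controls and 12.6 and 10.4 in Eva1 shRNA cells. Its change of 0.64 did not pass (adjusted p = 0.0571). Cdh10 passed with the authors' scaling (0.0213), with median centring (0.0429) and without the dimmest 25% of probes (0.0136). It did not pass with 16 intensity units added (change 0.22, adjusted p = 0.110), with blank cells filled (0.0938), with the replicate block (0.0503) or with eBayes trend (0.0632). With an array left out its change ran from 0.46 to 0.82 without passing. Cdh19, known from Schwann cell precursors, had a change of -0.37 that did not pass (adjusted p = 0.108). The remaining 8 type II genes were blank on at least 1 array.

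Markers of mesenchymal cells moved in the same arrays. Of 9 fibroblast or mural markers tested, 3 rose (Acta2, Col1a2 and Pdgfrb) and 1 fell (Rgs5), against 12.5% and 13.5% of all genes. At an unadjusted p under 0.05 there were 4 rises and 2 falls. Dcn had a change of -2.02 that did not pass (adjusted p = 0.0532). The summed intensity of the list was 846 and 942 in controls and 1710 and 1470 in Eva1 shRNA cells. Within it Acta2 went from 4.04 and 4.38 to 408 and 316. Col3a1, which did not pass, went from 610 and 726 to 1080.5 and 997. The part of these markers in the rise of Cdh11 was not tested. In such bulk samples more cells of a type and more RNA per cell cannot be told apart.

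Other cadherins moved in both directions, with 1 of 4 tested genes higher and 2 lower, against 12.5% and 13.5% of all genes. Cdh13 (T-cadherin), anchored to the membrane by a lipid and without a cytoplasmic tail, measured 433 and 541 in controls and 259 and 241 in Eva1 shRNA cells. Cdh13 was 2.17-fold lower (log2 change -1.12, standard error 0.17, adjusted p = 0.00937). That call was lost with either Eva1 shRNA array left out, each with adjusted p = 0.0621. Cdh17, the liver and intestine cadherin, measured 79.3 and 83.9 in controls and 31.9 and 40.1 in Eva1 shRNA cells, a 2.61-fold fall (adjusted p = 0.00669). That call was kept whichever array was left out and was lost under limma treat (0.0505). Cdh26 had intensities of 6.14 and 6.70 in controls and 22.7 and 20.7 in Eva1 shRNA cells. Cdh26 rose 2.93-fold (log2 change 1.55, adjusted p = 0.00240), or by 0.66 with 16 intensity units added.

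Protocadherins gave the largest rise of the tested junction genes. Pcdh19, an adhesion gene of the delta-2 group in which mutations cause an epilepsy of girls, measured 6.85 and 6.14 in controls and 43.2 and 30.8 in Eva1 shRNA cells. Pcdh19 rose 4.87-fold (log2 change 2.28, standard error 0.20, adjusted p = 0.00245) and was the rise of rank 109 among 13766 genes. Adding 16 intensity units, which damps changes of dim probes, lowered the change of Pcdh19 to 1.12. Pcdh18, of the same group, measured 62.8 and 55.3 in controls and 131 and 118 in Eva1 shRNA cells, a change of 0.89 (adjusted p = 0.0141). The Pcdh18 call was lost without control array 2 (adjusted p = 0.0566), Eva1 shRNA array 1 (0.0890) or Eva1 shRNA array 2 (0.0715). Pcdh1, of the delta-1 group and known from airway epithelium, went the other way, from 14.8 and 20.1 in controls to 7.35 and 6.17. Pcdh1 was 2.98-fold lower (log2 change -1.57, adjusted p = 0.00441), and the change was -0.64 with 16 intensity units added.

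The other 5 tested protocadherins did not pass, and Pcdh15 had the widest interval, from -1.10 to 1.61. Pcdh9 had a pair of probes that disagreed. The one with the higher mean, which stood for the gene, changed by 0.18 (standard error 0.23), and the other rose by 1.46 (standard error 0.30), from 2.22 and 4.27 in controls to 9.97 and 9.43. Adjusted over 19199 probes the second probe passed (adjusted p = 0.0270), so no single direction is given for Pcdh9. Pcdh9 passed upward as a gene with 16 intensity units added and with either control array left out, and in those fits the second probe had the higher mean.

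The promoter of Pcdh19 is shown because it was the junction gene with the largest rise. Of the 85 member genes 54 had an entry in the RefSeq promoter table, 8 of the 15 called ones among them. These are the 250 bases before the start of the gene, at chrX:133688994-133689243 (GRCm38.p6, minus strand), 5′ to 3′, with motif matches in capitals.
Pcdh19: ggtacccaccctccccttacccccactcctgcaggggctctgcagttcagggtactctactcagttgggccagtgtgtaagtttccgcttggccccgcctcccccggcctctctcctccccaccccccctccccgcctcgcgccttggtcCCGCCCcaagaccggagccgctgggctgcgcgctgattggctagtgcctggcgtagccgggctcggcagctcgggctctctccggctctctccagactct
The motifs searched on both strands were the GC box GGGCGG, the TATA box TATAAA, the E-box CACCTG and the AP-1 motif TGANTCA, and no match overlaps another in the windows shown here. They occur in 32.9%, 13.0%, 17.1% and 6.87% of the 27025 promoters of the same length in the table. The Pcdh19 window holds 1 GC box and has a GC content of 69.2%, against a median of 52% over all promoters.

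The largest fall of the tested junction genes was in the desmosomal group. Pkp1 (plakophilin 1), an armadillo-repeat protein of the desmosomal plaque best known from stratified epithelium, measured 618 and 635 in controls and 58.5 and 89.2 in Eva1 shRNA cells. Pkp1 was 9.75-fold lower (log2 change -3.29, standard error 0.24, adjusted p = 0.00160) and was the fall of rank 20 among 13766 genes. Its intensities were above the array median on all 4 arrays, the change was -3.01 with 16 intensity units added, and the call was kept under every alternative. Pkp3, another plakophilin, measured 7.21 and 12.1 in controls and 3.75 and 3.70 in Eva1 shRNA cells, a 2.91-fold fall (adjusted p = 0.00975). That of Pkp3 was -0.43 on the log2 scale with 16 intensity units added, and its call was lost without Eva1 shRNA array 1 (adjusted p = 0.0648) or Eva1 shRNA array 2 (0.0564).

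The rest of the desmosomal genes did not pass, with 2 of 10 tested lower and 0 higher in limma's test, against 13.5% and 12.5% of all genes. At an unadjusted p under 0.05, 3 were lower and 1 was higher. Pkp2, the plakophilin of heart and simple epithelia, measured 51.1 and 52.3 in controls and 48.8 and 41.2 in Eva1 shRNA cells. Its change of -0.38 (95% interval -0.74 to -0.02) did not pass (adjusted p = 0.109), although it did with 16 intensity units added (0.0427). Pkp4, a relative found also at adherens junctions, measured 139 and 159 in controls and 173 and 162 in Eva1 shRNA cells, a change of -0.01 with a 95% interval of -0.38 to 0.36. Jup (plakoglobin), shared by desmosomes and adherens junctions, had a change of 0.04 (95% interval -0.31 to 0.39). Among the desmosomal cadherins Dsg2 and Dsc2 had changes of -0.38 and -0.10 and did not pass. Dsc1, another desmocollin, had a change of 0.41 (adjusted p = 0.114) and was called higher with the authors' scaling. Dsp (desmoplakin), which ties the plaque to intermediate filaments, read between 2.46 and 3.32 on all arrays, far under the array median.

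**Figure D3:**
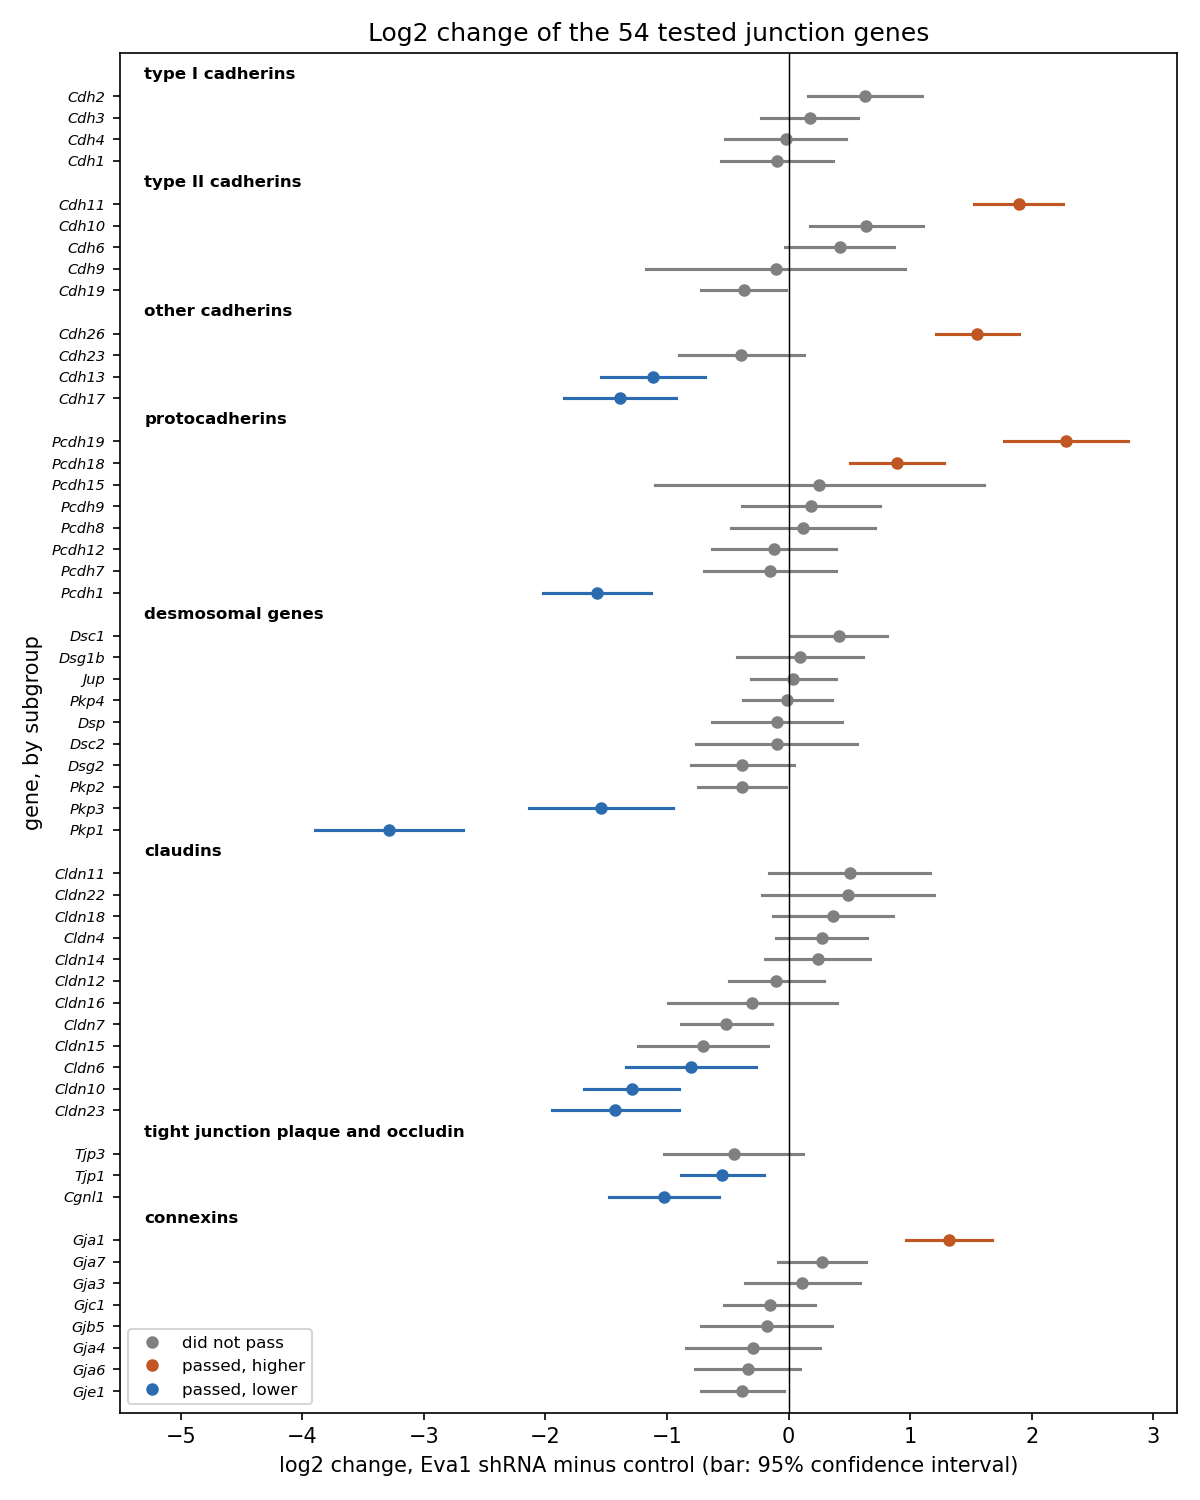
Log2 change (Eva1 shRNA minus control) of the 54 tested junction genes by subgroup, with points for the estimate, bars for the 95% confidence interval and colour for the call. Pkp1 stands at -3.29 and Pcdh19 at 2.28, and most other intervals lie between -1 and 1.

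Claudins gave 3 falls and 0 rises in limma's test among 12 tested, against 13.5% and 12.5% of all genes. There were also 0 rises at an unadjusted p under 0.05 and with eBayes trend. Cldn23 measured 53.1 and 55.8 in controls and 19.9 and 26.9 in Eva1 shRNA cells, and was 2.69-fold lower (log2 change -1.43, standard error 0.21, adjusted p = 0.00846). That call was lost without control array 1 (adjusted p = 0.0583) or control array 2 (0.0513). Cldn10, which forms ion-selective pores, measured 3.95 and 3.72 in controls and 1.76 and 1.57 in Eva1 shRNA cells (log2 change -1.29, adjusted p = 0.00517). Cldn6, a claudin of embryonic epithelia, measured 3.02 and 2.29 in controls and 1.61 and 1.55 in Eva1 shRNA cells (log2 change -0.80, adjusted p = 0.0449). Both lie near the lowest intensity of an array, 1.19 to 1.44, and with 16 intensity units added neither passed (changes of -0.19 and -0.10). Cldn6 was also lost without control array 1, Eva1 shRNA array 1 or Eva1 shRNA array 2. Its call was lost too with blank cells filled (0.0584), with eBayes trend (0.211), over probes (0.0553) and under limma treat.

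The claudins that were brighter than the array median on all 4 arrays did not fall together. Cldn23, which fell, was above it on both control arrays. Cldn14 measured 24.2 and 31.2 in controls and 36.5 and 38.6 in Eva1 shRNA cells, with a change of 0.24 that did not pass (adjusted p = 0.350). Cldn4, a sealing claudin, measured 191 and 215 in controls and 266 and 286 in Eva1 shRNA cells, with a change of 0.27 (95% interval -0.10 to 0.64, adjusted p = 0.232). Cldn12 measured 96.4 and 103 in controls and 100.1 and 114 in Eva1 shRNA cells, with a change of -0.10 (95% interval -0.49 to 0.29). Cldn7 measured 36.8 and 33.8 in controls and 28.1 and 28.8 in Eva1 shRNA cells, with a change of -0.51 (adjusted p = 0.0572) that passed with 16 intensity units added (0.0226). Cldn2, which forms cation and water pores, was blank on both control arrays and had 23.1 and 16.8 on the Eva1 shRNA arrays. No fold is given against blank cells. Over the whole chip this pattern held for 433 probes, and the reverse pattern for 101.

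Of the tight junction plaque genes 2 of 3 tested passed, both downward, against 13.5% of all genes. Cgnl1 (paracingulin), a scaffold found at tight and adherens junctions, measured 94.4 and 117 in controls and 54.9 and 63.1 in Eva1 shRNA cells, a 2.03-fold fall (log2 change -1.02, standard error 0.18, adjusted p = 0.0142). The Cgnl1 call was lost without control array 2 (adjusted p = 0.0610), Eva1 shRNA array 1 (0.0888) or Eva1 shRNA array 2 (0.0526). Tjp1 (ZO-1), which links claudins to actin, measured 119 and 118 in controls and 93.2 and 93.1 in Eva1 shRNA cells (log2 change -0.55, adjusted p = 0.0382). The call of Tjp1 was lost with the authors' scaling (0.113), with blank cells filled (0.0582), with the replicate number as a block (0.0704), and in each leave-out fit (0.118 for control array 1, 0.0913 for control array 2, 0.180 for Eva1 shRNA array 1 and 0.146 for Eva1 shRNA array 2). Tjp3 was dim and changed by -0.45 without passing (adjusted p = 0.202), and Ocln (occludin) read at most 2.73 and was blank on 1 control array.

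The promoter of Cgnl1, the called fall of at least 2-fold in this subgroup, lies at chr9:71771603-71771852 (GRCm38.p6, minus strand) and is given in the same way.
Cgnl1: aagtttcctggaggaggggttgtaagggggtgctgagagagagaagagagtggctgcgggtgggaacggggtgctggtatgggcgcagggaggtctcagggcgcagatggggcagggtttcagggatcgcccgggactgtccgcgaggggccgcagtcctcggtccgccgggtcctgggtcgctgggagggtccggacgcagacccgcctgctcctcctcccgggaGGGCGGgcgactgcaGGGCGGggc
It holds 2 GC boxes, with a GC content of 70.8%, and none of the other 3 motifs.

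Epithelial markers were low in both groups. Of 7 such markers 5 had a probe and none reached the array median on any array. Their summed intensity was 25.5 and 25.6 in controls and 30.5 and 35.6 in Eva1 shRNA cells, and 0 of the 3 tested (Elf3, Krt19 and Epcam) passed in limma's test, 0 of them at an unadjusted p under 0.05. The part of such cells in the claudin and plakophilin falls was not tested.

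Gja1 was the connexin that changed, the only call among 8 tested connexins in limma's test, which called 26% of all genes. Gja1 measured 467 and 508 in controls and 1391 and 1337 in Eva1 shRNA cells, with both groups tight and well apart. It rose 2.50-fold (log2 change 1.32, standard error 0.14, adjusted p = 0.00382), kept the call under every alternative, and had a change of 1.29 with 16 intensity units added. Of the astrocyte markers, 5 of 5 had a probe, with a summed intensity of 30.6 and 31.3 in controls and 38.2 and 34.9 in Eva1 shRNA cells. Gfap, which defines astrocytes, was blank or under 3 on all arrays, and 0 of the 2 tested astrocyte markers passed in limma's test (1, downward, at an unadjusted p under 0.05).

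The other connexins did not pass the test. Gja7, which is the older name of Gjc1 and encodes a connexin of heart and early neural tissue, measured 245 and 223 in controls and 337 and 300.5 in Eva1 shRNA cells, with a change of 0.27 (95% interval -0.09 to 0.64). Gja6, known from testis, measured 157 and 134 in controls and 121 and 140.1 in Eva1 shRNA cells, with a change of -0.34 (95% interval -0.77 to 0.10). The annotation also carries the symbols Gjc1 and Gje1, each used over time for a pair of genes (Gjd3 and Gjc1, Gjc3 and Gje1), so their probes, with changes of -0.16 and -0.38 that did not pass, are tied to no single gene. Gjb1, Gjb2, Gjb6, Gja5 and Gja10 were blank on 1 or more arrays and read at most 2.65.

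The promoter of Gja1 is shown because Gja1 is the called connexin. It lies at chr10:56377050-56377299 (GRCm38.p6, plus strand).
Gja1: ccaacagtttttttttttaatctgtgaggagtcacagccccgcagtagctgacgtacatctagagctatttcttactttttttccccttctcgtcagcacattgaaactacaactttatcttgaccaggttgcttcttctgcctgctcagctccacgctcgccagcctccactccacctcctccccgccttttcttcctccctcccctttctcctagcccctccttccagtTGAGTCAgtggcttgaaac
It holds 1 AP-1 motif close to the start and none of the other 3 motifs, with a GC content of 50%. A match describes letters and no binding was measured here.

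**Figure D4:**
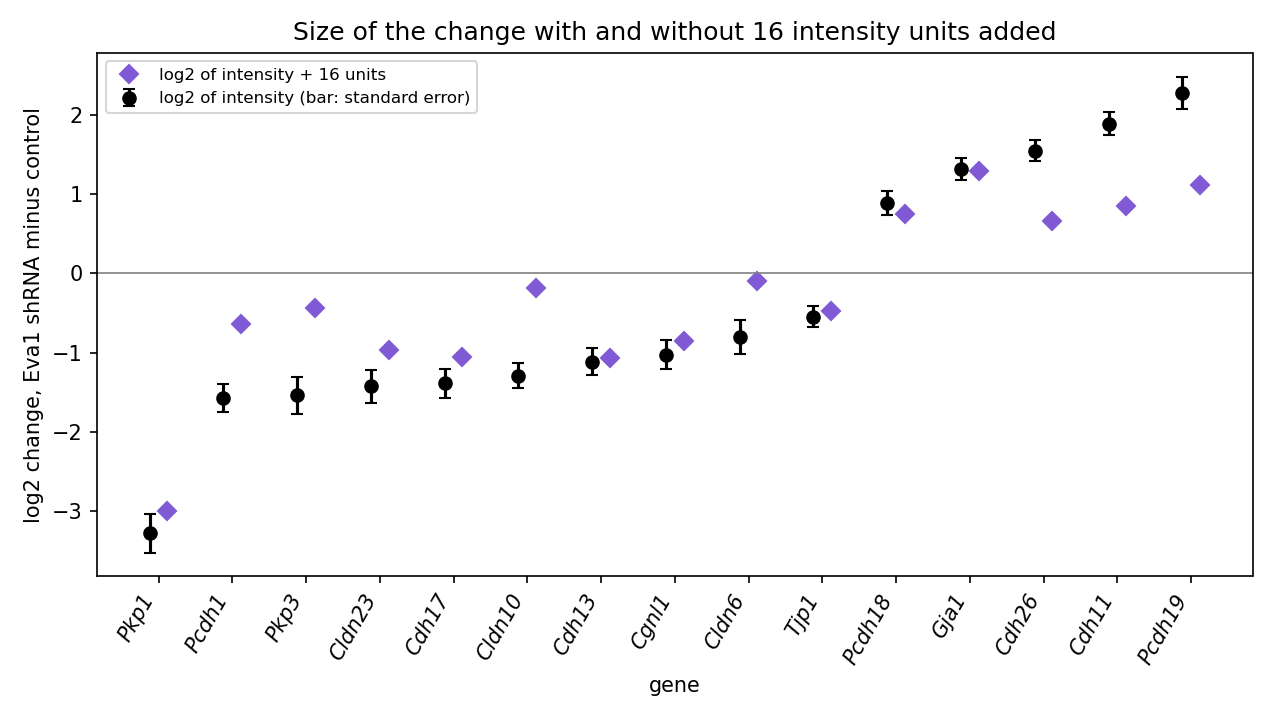
Log2 change of the 15 called genes from log2 of the intensity (circles, bars are standard errors) and after 16 intensity units were added (diamonds). Pkp1, Gja1 and Cdh13 hardly move, while the dim genes Pcdh19, Cdh11, Cdh26, Pcdh1, Pkp3, Cldn10 and Cldn6 shrink towards 0.

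Junction genes were often at the bottom of the scale. All 4 arrays gave a value for 63.2% of their probes, against 81.8% of all probes, and 31 of the 85 genes were not tested for that reason. Of these, Cdh7, Cdh8, Pcdh11x, Cldn8 and Gja10 were blank on all 4 arrays. Cdh12, Cdh16, Cldn2 and Gjb6 had values from the Eva1 shRNA arrays only, and no member was blank on both Eva1 shRNA arrays alone. Blank cells were also fewer over all probes on the Eva1 shRNA arrays, at 6.95% and 8.35%, than on the control arrays, at 11.98% and 10.8%. Cdh5 (VE-cadherin), which marks endothelium, gave 3.13 and 4.46 in controls and 1.86 and a blank in Eva1 shRNA cells, in arrays where the endothelial marker Pecam1 read at most 3.85. Of 6 endothelial markers 4 were tested, of which Cd34 and Emcn rose and Flt1 fell, against 12.5% and 13.5% of all genes. The endothelial list summed to 592 and 593 in controls and 561 and 515 in Eva1 shRNA cells. With blank cells filled with the lowest value of each array, Cldn2 and Cdh12 were called higher and Cdh15 and Cdh5 lower. In that fit these calls rest on the filled value.

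Genes that work with the junction proteins changed in both directions. Of 61 genes listed for such roles 51 had a probe and 42 were tested, and 9 rose and 6 fell (21.4% and 14.3%, against the background of 12.5% and 13.5%). The median change was -0.05. Perp, a membrane protein of desmosomes and a p53 target, measured 14.3 and 12.8 in controls and 111 and 107 in Eva1 shRNA cells, a change of 2.79 (standard error 0.15, adjusted p = 0.00105). Ppl (periplakin), which links desmosomes to intermediate filaments in epidermis, measured 8.67 and 10.4 in controls and 65.4 and 52.8 in Eva1 shRNA cells, a change of 2.43 (adjusted p = 0.00124). The third tested gene of that desmosome-linked list, Evpl (envoplakin), had a change of -0.06 and did not pass (adjusted p = 0.834).

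Of 4 tested nectins, immunoglobulin-type adhesion proteins of adherens junctions, 1 rose and 1 fell, against 12.5% and 13.5% of all genes. Nectin1 (-0.20, adjusted p = 0.441) and Nectin4 (-0.38, adjusted p = 0.208) did not pass. Nectin3 measured 204 and 161 in controls and 637 and 596 in Eva1 shRNA cells and rose 3.04-fold (adjusted p = 0.00400). Nectin2 measured 73.2 and 78.3 in controls and 35.7 and 33.3 in Eva1 shRNA cells and was 2.53-fold lower (adjusted p = 0.00343). Cxadr, the coxsackievirus and adenovirus receptor at tight junctions, had a change of 1.37 and the polarity gene Pard6g 1.51, and both rose. These 6 partners, chosen as those with the smallest p, kept their calls under every alternative.

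The tested catenins, the partners of cadherins inside the cell, did not pass. Of 9 tested genes of the list that holds them, 0 rose in limma's test (0 also at an unadjusted p under 0.05). In the same list 1 fell, the actin-binding gene Lima1 (-0.55, adjusted p = 0.0493). Ctnna1 (alpha-catenin) had a change of -0.16 and Ctnnb1 (beta-catenin) of -0.32, with adjusted p = 0.534 and 0.169. Of the tight junction membrane and polarity genes, 5 rose and 4 fell among 16 tested (31.2% and 25%, against 12.5% and 13.5% of all genes). With any single array left out fewer partners were called lower, and fewer genes were called lower over all genes as well.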

How the data were processed

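The authors deposited 1 table of intensity values on a linear scale for 4 arrays, scaled between arrays as the values show. Per the labels, amplified RNA carried the dye Cy5 alone on a 3D-Gene mouse chip. How background was subtracted and cells were left blank is not given in the sources used here, and the number of arrays limits the precision (2 residual degrees of freedom).

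Log2 intensities of the 19199 probes with a value on all 4 arrays were quantile normalized, since array medians differed by 0.274. The probe with the highest mean stood for a gene, and limma 3.58.1 (R 4.3.3; lmFit, eBayes without trend) was run over all 13766 genes with Benjamini-Hochberg adjustment. Of 23473 probes 16631 had 1 symbol, 0 several and 6842 none, and 3947 symbols were updated through a RefSeq table of GRCm38.p6. Members kept their platform symbol. Promoter sequences are those of RefSeq.

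Named were Mpzl2, called members of at least 2-fold, the 3 with the smallest p and the 2 brightest of each subgroup, and the 6 partners with the smallest p. Others were named for their role or after their values were seen. The members and lists were chosen with earlier results of these data known. Alternatives changed the scaling, the dim filter, the offset, blank cells, the replicate block, eBayes, the probe rule and the null, or left out an array. The test was checked on simulated data. Figures were drawn with matplotlib 3.10.9.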

Additional observations from a re-analysis of the deposited data

How the results depend on the processing

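No called gene changed direction. With the authors' scaling the median change of the junction genes went from -0.10 to 0.09 and that of all genes from -0.01 to 0.18, and the changes of Cdh1, Cldn12 and Pkp4, which passed in neither fit, turned from negative to positive (0.11, 0.10 and 0.17). Of the 15 junction calls, 6 (Pkp1, Pcdh1, Gja1, Cdh11, Cdh26 and Pcdh19) were kept under every alternative in which the gene was tested, and 8 were kept whichever array was left out. Junction genes called higher numbered 8 with the authors' scaling and 8 with 16 intensity units added, against 5. Over all genes these counts were 2714 and 2445, against 1720. Junction genes called lower numbered 3 under limma treat against a 1.5-fold change (with 4 higher), against 10. The calls lost there were Pcdh18, Cdh13, Tjp1, Cgnl1, Cdh17, Cldn23, Pkp3 and Cldn6. Over all genes treat called 480 lower, against 1856. Partner genes called lower numbered 3 once blank cells were filled, 1 with the authors' scaling and 1 under treat, against 6. Over all genes 1442, 1295 and 480 were called lower in these fits, against 1856. Partner genes called higher numbered 5 under treat, against 9, and over all genes 369, against 1720. With an array left out, fewer junction and partner genes were called lower, as over all genes. The change of Mpzl2 ran from -3.29 to -2.98 with an array left out and was -1.71 with 16 units added.

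Deviations of same-numbered arrays correlated at -0.00926. With 2 arrays per group this value cannot tell whether same-numbered arrays share anything beyond the number. With the replicate number as a block 5 junction genes were higher and 9 lower, and 7 partners were higher and 3 lower, with 3102 calls in place of 3576 over all genes. Over all genes the calls without a single array numbered 1541, 2036, 1146 and 1366 (control arrays 1 and 2, Eva1 shRNA arrays 1 and 2), and 849 under treat. Signal over background limits the dim members: for 8 of the 15 called genes the dimmer group lay under the array median.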
